A study of Mus musculus with 4 samples.

Results

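Cells sorted as CX3CR1+ACE+ macrophages from mouse periosteum were compared after culture with periostin or vehicle, over every gene that the authors' table lists for this subset. The table gave 17210 genes of the 17532 listed in either table of the series, and 14734 of them reached 1 CPM (scaled counts per 1000000) in at least 1 of the libraries and were compared. The cells were isolated from wild-type male C57BL/6 mice at postnatal day 28 with antibodies to CD45, CX3CR1 and ACE. They were cultured in serum-containing medium with 10 ng/ml M-CSF, a growth factor for macrophages, and received recombinant mouse periostin at 500 ng/ml or PBS (0 ng/ml) for 24 h. Each side held 1 library, so nothing below was tested across samples and no spread between replicates exists. The vehicle library held 15471245 recovered reads and the periostin library 19798150, and the median gene had 219 and 282 reads. A single read was worth 0.0627 CPM with vehicle and 0.0491 CPM with periostin.

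Periostin is a matricellular protein: it is secreted into collagen-rich tissues such as periosteum, binds collagen and fibronectin, and signals to cells through integrins. Periosteum is the fibrous and cellular sheet on the outer face of bone, and its macrophages lie among fibroblasts, bone-forming cells, nerves and vessels. CX3CR1, the fractalkine receptor, marks many tissue macrophages, and ACE, the angiotensin-converting enzyme, is a membrane peptidase.

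The labelled cell type was set against its markers first. Ptprc, which encodes CD45, had 618 CPM with vehicle and 560 CPM with periostin, and Cx3cr1 had 16.9 and 21.7 CPM. Ace was close to the lowest levels compared, with 44 reads or 2.76 CPM and 57 reads or 2.80 CPM. All 12 macrophage markers were detected, and their summed level was 7690 CPM with vehicle and 8178 CPM with periostin. The macrophage markers with the most reads were Lyz2, which encodes lysozyme, at 5718 and 6004 CPM, and Itgam, a complement receptor subunit, at 922 and 994 CPM.

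Genes that mark other cells were also present in both libraries. The 10 neutrophil markers summed to 22605 CPM with vehicle and 27405 CPM with periostin, and the 30 megakaryocyte and platelet markers to 12118 and 11027 CPM. The 8 B cell markers summed to 1315 and 1300 CPM, led by Ighm at 771 and 839 CPM and Cd79b at 163 and 142 CPM. The 8 erythroid markers summed to 1689 and 1995 CPM, and the 9 listed markers of fibroblasts and periosteal progenitors to 1487 and 1428 CPM. This last list holds Ctsk, which is also an osteoclast marker and was higher with periostin, while the sum was lower. Endothelial markers summed to 313 and 319 CPM. T and NK cell markers were near the floor, at 5.27 and 10.6 CPM. Markers of several cell types beside macrophages were thus read in both conditions, and in such bulk RNA fewer cells of a type and less RNA per cell cannot be told apart.

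The levels of most genes lay close together in the vehicle and periostin libraries. A gene was called higher or lower at a change of at least 2-fold after 1 CPM was added to both levels. By this rule 217 genes, or 1.47% of those compared, were higher with periostin and 191, or 1.30%, were lower. On the same scale, 15.2% of genes were at least 25% higher and 15.3% at least 20% lower. A level was called held where the whole 95% counting interval of the fold lay between 20% lower and 25% higher, limits equal on a log scale, which was met by 5176 genes, or 35.1%. Intervals throughout are exact and cover counting error only; how far cultures or animals vary is not in them. The median log2 change over all genes compared was 0.00.

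The size of the change depended on the level of the gene, as the plot of change against level shows. Levels were banded by the mean CPM of both libraries, which ranks genes by their share of reads and not per length. Of the 3125 genes between 1 and 5 CPM, 134 were called higher and 132 lower, and these made up the majority of calls in each direction. Of the 3475 genes between 5 and 20 CPM, 40 were called higher and 34 lower. Between 20 and 100 CPM, 7 of 5278 genes were called higher and 3 lower. Between 100 and 500 CPM, 1 of 1998 genes was called higher and 0 lower, and of the 236 genes at 500 CPM or more none was called in either direction.

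**Figure D1:**
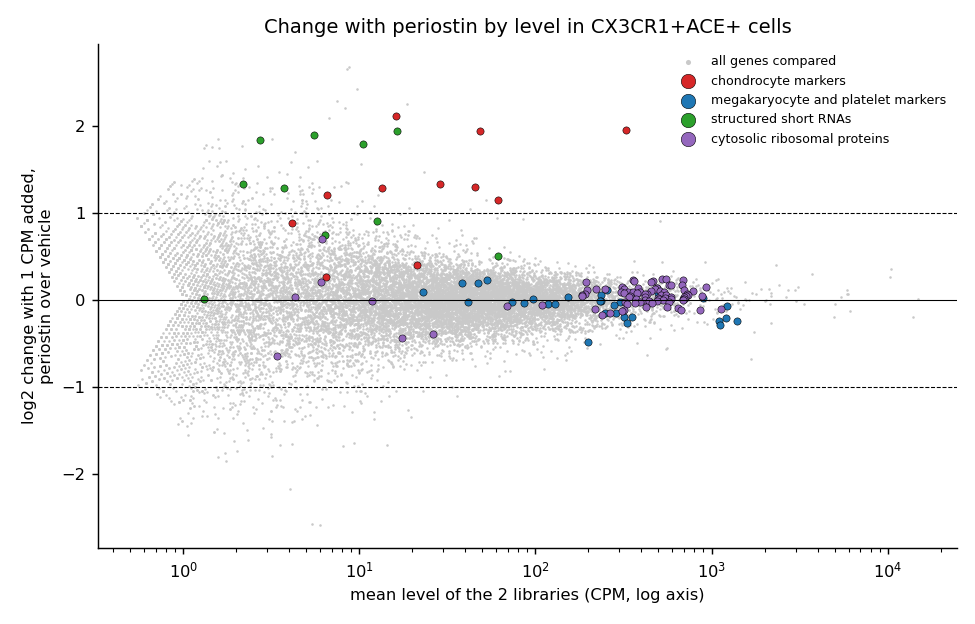
Each grey point is 1 of 14734 genes, with the mean level of the 2 libraries in CPM on a log axis and the log2 change with 1 CPM added on the other axis. Dashed lines mark the 2-fold limits, and coloured points are 4 gene lists: chondrocyte markers and structured short RNAs lie mostly above the upper line, while platelet markers and cytosolic ribosomal proteins lie near 0.

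Held levels followed the reverse order. In the band from 5 to 20 CPM 8.72% of genes were held, from 20 to 100 CPM 55.5%, from 100 to 500 CPM 86.1%, and at 500 CPM or more 94.1%. Below 5 CPM no gene was held, which the number of reads sets: the median gene between 1 and 5 CPM had 34 reads with vehicle and 45 with periostin. Among genes at 500 CPM or more, the central 90% of log2 changes ran from -0.25 to 0.24.

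**Figure D2:**
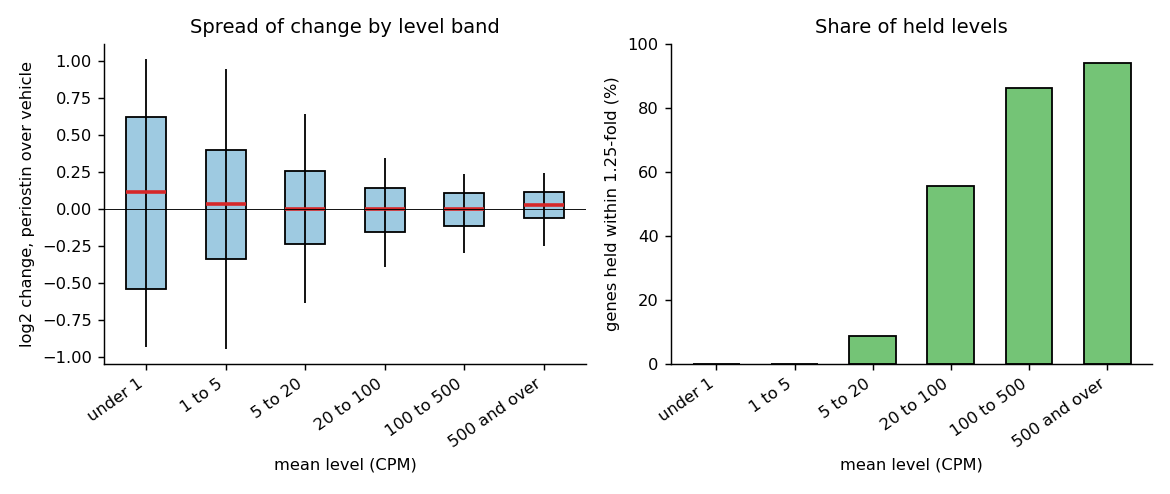
Left, the log2 change with 1 CPM added in each band of mean CPM: boxes span the quartiles, red lines are medians and vertical lines run from the 5th to the 95th percentile. Right, the percentage of genes in each band whose level was held, rising from 8.72% at 5 to 20 CPM to 94.1% at 500 CPM or more.

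Genes at 500 CPM or more showed the highest ratios in a matrix gene and the lowest in matricellular and adhesion genes. Fn1 (GRCm38 chromosome 1, 71585520 to 71653200), which encodes fibronectin, had 353 CPM with vehicle and 661 CPM with periostin, a ratio of 1.87 (95% counting interval 1.81 to 1.93). Thbs1 (chromosome 2, 118111876 to 118127133), which encodes thrombospondin 1, a matricellular protein made by macrophages and stored in platelets, had 2071 and 1290 CPM, 1.61 times lower (1.58 to 1.63). Neither reached the 2-fold limit, and both lay far outside the central 90% of this band. Itga6, the laminin-binding integrin subunit, had 655 and 443 CPM, 1.48 times lower (1.44 to 1.52).

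Apoe, the lipid-carrying apolipoprotein E, had 447 and 606 CPM, a ratio of 1.36 (1.32 to 1.40). Hbb-bs, a beta-globin gene, had 787 and 1061 CPM, and mt-Rnr1, the small ribosomal RNA of mitochondria, 1990 and 2627 CPM. Spp1, which encodes osteopontin, an integrin ligand of bone, had 1958 and 1516 CPM, 1.29 times lower (1.27 to 1.31), and shares 18.8% of its exon bases with other genes. Ctla2a, a cathepsin inhibitor gene of mice 16.3% of whose exon bases are shared with other genes, had 663 and 451 CPM.

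Counted in CPM rather than as ratios, the largest gains were in genes with the most reads, a view chosen after the values were seen. S100a8 and S100a9, the paired calcium-binding proteins of neutrophils and monocytes known as calprotectin, had 9157 and 9413 CPM with vehicle and 11740 and 11261 CPM with periostin. Their ratios were 1.28 (1.27 to 1.29) and 1.20 (1.19 to 1.20), and S100a9 was among the held genes. The next gains were in mt-Rnr2, at 3318 and 4085 CPM, mt-Rnr1, and Psap, the precursor of lysosomal saposins, at 5666 and 6125 CPM. The largest losses were Ftl1, the ferritin light chain, at 14888 and 12992 CPM 34.6% of whose exon bases are shared, then Thbs1, mt-Co1, Spp1 and the peroxide-reducing enzyme gene Prdx1 at 2388 and 1978 CPM. Neutrophil markers as a list lay above the all-gene median in 9 of 10 members, with 1 called higher, against 1.47% of all genes. S100a8 and S100a9 are on that list and made up most of its sum of 22605 and 27405 CPM, so it is not separate from them. The part of neutrophils in the S100a8 and S100a9 difference was not tested.

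Between 100 and 500 CPM the only gene called higher was Col2a1, the fibrillar collagen of cartilage, at 134 and 520 CPM. The genes next in rank were far below it. Csf2ra (chromosome 19, 61223957 to 61228429), a subunit of the GM-CSF receptor, had 307 and 419 CPM, a ratio of 1.36 (1.32 to 1.41). Gga1, a clathrin adaptor of the trans-Golgi network, had 90.0 and 122 CPM, and Cdk11b, a kinase of transcription and splicing, 113 and 152 CPM.

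In the same band the lowest ratio was that of Arhgef12 (chromosome 9, 42963842 to 43107239), a guanine exchange factor, with 142 CPM against 81.1 CPM, 1.75 times lower (1.64 to 1.86). Dmp1, a matrix protein of osteocytes, had 184 and 114 CPM, 1.61 times lower (1.53 to 1.71). Slc44a1, a choline transporter, had 163 and 102 CPM, and March7, a ubiquitin ligase, 136 and 86.0 CPM. None of these 4 reached the 2-fold limit.

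Between 20 and 100 CPM, Kcna3, the voltage-gated potassium channel Kv1.3 of leukocytes, fell from 31.5 to 14.8 CPM, 2.13 times lower (1.84 to 2.47). Syt13, a synaptotagmin, fell from 45.3 to 22.1 CPM, 2.05 times lower (1.82 to 2.31). The third gene called lower was the predicted gene Gm10800. Kcna3 and Syt13 stood at the edge of the 2-fold rule and were no longer called when 5 CPM was added in place of 1. Lcor, a nuclear receptor corepressor, had 33.0 and 17.4 CPM, and Cpe, a carboxypeptidase that trims peptide hormones, 80.9 and 43.6 CPM, neither called. The genes with the highest ratios in this band were Col11a1, Mpo, Acan and Col10a1, all of which rose. The other genes called higher there were Col6a2 at 32.2 and 72.7 CPM, Col11a2, and Aebp1, a collagen-binding carboxypeptidase-like protein, at 27.3 and 57.4 CPM, named after their values were seen. Of these 7, Mpo, the granule peroxidase of neutrophil precursors, had 11.98 and 34.9 CPM and shares 15% of its exon bases with other genes.

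Between 5 and 20 CPM, Igkv6-25, an immunoglobulin light chain variable segment, rose from 1.63 to 15.8 CPM on 26 and 322 reads. Over all 70 immunoglobulin variable segments compared, 8 were called higher and 5 lower, where 1.47% and 1.30% of all genes were, with a median log2 change of 0.04. These 70 segments summed to only 158 and 173 CPM, and of genes between 1 and 5 CPM 4.29% were called higher and 4.22% lower. Related segments can share reads. Loxl2, Prg2 and Prg4 also rose, and Aldh3a1, Saa3, Gpr153 and Crtam fell. Gpr153, an orphan receptor gene, fell from 22.5 to 6.38 CPM, 3.53 times lower (2.88 to 4.35).

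**Figure D3:**
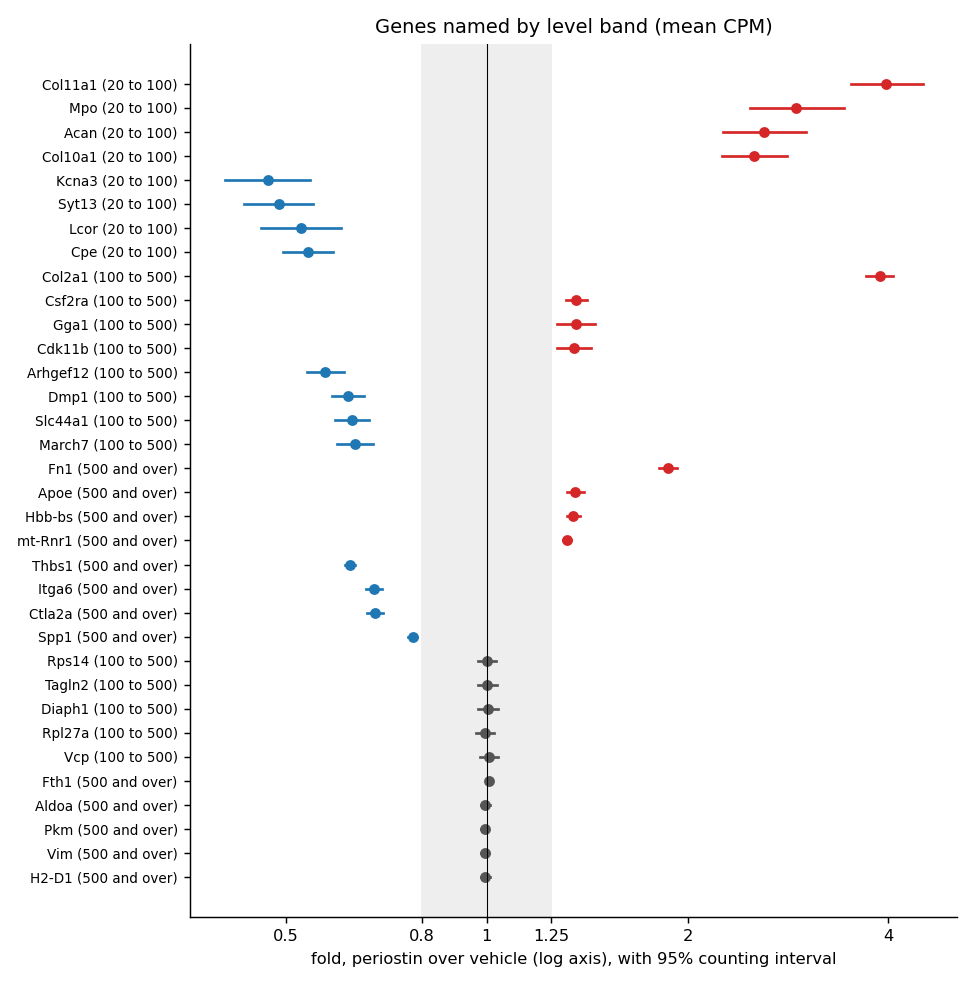
Ratio of periostin to vehicle on a log axis for the genes named by level band, with exact 95% counting intervals. Red marks the 4 highest and blue the 4 lowest log2 changes of each band, grey the 5 most tightly held genes of the upper bands, and the shaded strip spans the limits of a held level. Past 100 CPM only Col2a1 lies beyond 2-fold.

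The genes whose levels were held most tightly came from iron storage, glycolysis, the cytoskeleton, translation and antigen presentation. Fth1, the ferritin heavy chain, had 14888 CPM with vehicle and 15005 CPM with periostin, a ratio of 1.01 (1.00 to 1.01), while its partner Ftl1 had a ratio of 0.873. Aldoa and Pkm, enzymes of glycolysis, had 2051 and 2041 CPM and 3030 and 3006 CPM, and Pkm shares 15.3% of its exon bases. Vim, the intermediate filament vimentin, had 2014 and 2002 CPM, and H2-D1, a class I antigen-presenting molecule, 1572 and 1565 CPM. Between 100 and 500 CPM the ribosomal proteins Rps14 and Rpl27a, the actin-binding protein Tagln2, the formin Diaph1 and the ATPase Vcp had ratios between 0.994 and 1.01.

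Periostin itself and its integrin receptors showed small differences, and these 4 genes were named for their role and not by rank. Postn had 27.2 and 28.4 CPM, a ratio of 1.04 (0.920 to 1.19). Itgav and Itgb5 had 117 and 105 CPM and 152 and 145 CPM. Itgb3, the partner of Itgav that platelets and osteoclasts also carry, had 1200 and 1012 CPM, a ratio of 0.844 (0.827 to 0.860). Of the 24 integrin subunits compared 0 were called higher, 2 lower and 9 held, beside 1.30% of all genes lower and 35.1% held, with a list median of 0.04. The share held was near that of all genes. The 2 called lower, named after their values were seen, were Itga1 and Itgb8 at 3.07 and 0.785 CPM and 3.01 and 0.687 CPM. The member with the lowest ratio above 5 CPM was Itga3, at 10.5 and 6.97 CPM, and the highest was Itgax, at 19.9 and 29.0 CPM.

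Adaptors downstream of integrins were close to constant as a list. Of 32 focal adhesion adaptors and kinases, 0 passed 2-fold and 26 were held, with 16 above and 16 below the all-gene median. Lims1, an adaptor of the integrin-linked kinase complex, had 569 and 449 CPM, and Tns1, a tensin that ties integrins to actin, 106 and 132 CPM. Every one of the 11 genes for actins and the Arp2/3 complex was held, from Actr2 at 483 and 424 CPM to Arpc3 at 334 and 391 CPM. It was the only one of 128 lists of which every compared member was held. Of all genes 35.1% were held, but 86.1% of those between 100 and 500 CPM and 94.1% of those at 500 CPM or more. Both lists hold many genes of high level, with sums of 7743 CPM for the adaptors and 10540 CPM for actins and Arp2/3 with vehicle. The counts of held members thus cannot be read apart from level.

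Families were described with 128 lists of 5 or more compared genes. A list was called shifted when its median lay at least 0.1 log2 units from the all-gene median and at least 2 in 3 of its members lay on that side, where 50.0% of all genes lie above. By this rule 12 lists were shifted upward, 7 downward, and 102 had medians within 0.1 of the all-gene median. Lists were counted with no test, and their counts describe this pair of libraries.

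Several matrix lists were shifted upward and others were not. Elastic fibre genes had 10 of 14 above but a median of 0.09, serpins 13 of 21 and a median of 0.06, and ADAM and ADAMTS proteases 12 of 25 and a median of -0.02, all under the rule. Of 34 collagens compared, 23 lay above the all-gene median and 11 below, and the list median was 0.25. Of these collagens 8 were called higher and 1, Col22a1, lower, beside 1.47% and 1.30% of all genes. The fibrillar and cartilage collagens divided: Col2a1 and Col9a3 had ratios of 3.88 and 4.94, whereas Col1a2, a chain of the main collagen of bone and tendon, had 442 and 313 CPM and a ratio of 0.709 (0.685 to 0.734). Col8a1 had 22.3 and 14.3 CPM. The summed level of all listed collagens was 1781 CPM with vehicle and 2287 CPM with periostin.

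Basement membrane and proteoglycan genes were shifted on lower levels. Laminins, nidogens and perlecan had a median of 0.31 with 7 of 10 above, although their sum was 243 and 248 CPM, and with no filter on low values the median of 12 was 0.16 and the call ended. Lamb1, a beta chain of laminin, had 22.2 and 34.3 CPM. Small leucine-rich proteoglycans, which bind collagen fibrils, had a median of 0.30 with 7 of 10 above. Prelp rose from 2.51 to 7.11 CPM, Omd, osteomodulin of bone, fell from 48 reads to 3, and Bgn, biglycan, was held at 165 and 171 CPM.

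Some lists of enzymes that modify or cut matrix were shifted upward by smaller amounts, unlike the ADAM and ADAMTS proteases. Matrix metalloproteinases and their inhibitors had 16 of 19 members above the all-gene median and a median of 0.16. Among them 0 were called higher, 1, Mmp10, lower and 10 held, beside 1.47%, 1.30% and 35.1% of all genes. Mmp3, stromelysin, had 15.4 and 26.3 CPM, Timp3, which shares 21.3% of its exon bases, 198 and 230 CPM, and Mmp2 was held at 42.0 and 38.4 CPM. Lysyl oxidases and prolyl hydroxylases had 12 of 16 above and a median of 0.17, which was 0.08 and not called with the GC trend described below removed. P3h2, with 28.4% of its exon bases shared, rose from 2.76 to 8.10 CPM, while Lox had 135 and 114 CPM. Cathepsins, the proteases of lysosomes, had 11 of 14 above and a median of 0.14. With the GC trend removed their median was 0.17, but 9 of 14 lay above, under 2 in 3, and the call ended. Ctsk, the collagen-cutting cathepsin of osteoclasts, had 535 and 671 CPM, and Ctss, which trims the class II invariant chain, was held at 1126 and 1023 CPM. All 7 osteoclast markers compared, Ctsk among them, lay above the all-gene median, with a median of 0.14 that was 0.09 with the GC trend removed, and a sum of 1720 and 1984 CPM. The part of such cells in the cathepsin list was not tested.

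Chondrocytes make most of the cartilage collagens above, and their markers were read next. Many of these markers are themselves collagens, Col2a1, Col9a3 and Col11a1 among them, so this list and the collagen list are not independent. Of 12 chondrocyte markers 11 were compared, and Matn3, with 3 and 18 reads, was under the filter. All 11 lay above the all-gene median, and 8 of them were called higher, against 1.47% of all genes. The sum of the markers was 276 CPM with vehicle and 882 CPM with periostin, of which Col2a1 alone had 134 and 520 CPM. Sox9, the defining transcription factor of the lineage, had 5.83 and 7.16 CPM, a ratio of 1.23 whose interval of 0.940 to 1.61 spans 1. Osteoblast and osteocyte markers were shifted the other way, with 6 of 8 below and a sum of 373 and 279 CPM. Their median was -0.26, which was -0.10 and under the rule at a minimum of 5 CPM. Among these 8 markers 0 were called lower, beside 1.30% of all genes. Bglap, osteocalcin, was held at 49.4 and 50.1 CPM, and Dmp1 had the largest loss in CPM. The part of these cells in the matrix lists was not tested.

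Promoter windows of the paired chains of collagen XI, which rose together, are shown because these genes are on separate chromosomes. The windows are from RefSeq on GRCm38.p6 and run from 250 bases before to 50 bases after the annotated start, chromosome 3, 114030290 to 114030589 for Col11a1 and chromosome 17, 34038888 to 34039187 for Col11a2, both on the plus strand. Capitals mark GGGCGG on either strand, the core of the GC box.
Col11a1: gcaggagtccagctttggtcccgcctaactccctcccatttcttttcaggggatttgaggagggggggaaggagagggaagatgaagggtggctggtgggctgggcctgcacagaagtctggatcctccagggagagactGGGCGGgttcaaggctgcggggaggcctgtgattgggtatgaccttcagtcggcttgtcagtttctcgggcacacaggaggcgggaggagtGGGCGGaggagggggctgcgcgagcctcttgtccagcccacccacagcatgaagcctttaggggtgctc
Col11a2: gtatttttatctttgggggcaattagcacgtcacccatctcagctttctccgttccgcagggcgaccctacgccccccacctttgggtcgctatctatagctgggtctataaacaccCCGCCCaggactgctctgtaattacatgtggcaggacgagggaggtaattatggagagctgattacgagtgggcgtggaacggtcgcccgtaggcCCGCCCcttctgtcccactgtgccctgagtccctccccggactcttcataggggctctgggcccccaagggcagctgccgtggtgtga
Each window held 2 matches, and 35.7% of the 32851 promoter windows in the table held at least 1. The share with 2 or more was not counted. A match is a run of letters and not an observed binding site.

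Macrophage receptor families were divided. Scavenger receptors had 11 of 16 above and a median of 0.08, Fc receptors and adaptors 15 of 27 and a median of 0.05, and receptors and bridges for apoptotic cells 13 of 22 and a median of 0.09, none of them shifted. The sum of the last list was 3417 and 2663 CPM, and Thbs1 is one of its members. Siglecs and CD300 receptors, inhibitory and activating receptors for sialic acids and lipids, had 11 of 13 above and a median of 0.12, which was 0.04 over 15 genes with no filter, under the rule. Siglece had 10.7 and 18.6 CPM, and Cd300lb was held at 162 and 155 CPM. Complement components and receptors had 13 of 18 above and a median of 0.15, with Serping1, the inhibitor of the first component, at 7.21 and 10.9 CPM and the complement-regulating Cd55 at 22.1 and 16.9 CPM. Core macrophage genes had 19 of 27 above and a median of 0.13. Adgre1, which encodes the F4/80 antigen, had 54.5 and 39.7 CPM, Mertk, a receptor for apoptotic cells, 12.2 and 14.7 CPM, and Lyve1 fell from 15.1 to 6.62 CPM.

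Antigen presentation lists differed in their medians. MHC class II presentation genes had 13 of 17 above, a median of 0.17, 0 calls and 10 held. MHC class I presentation genes had 12 above and 11 below, a median of 0.01 and 18 of 23 held. Beside them, 1.47% of all genes were called higher, 1.30% lower and 35.1% held. The share held rose with level, to 86.1% between 100 and 500 CPM, so these counts cannot be read apart from level. The difference between these lists was not tested.

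Cytokine and interferon lists stayed under the rule for a shift. Of 74 inflammatory cytokines and receptors compared, 49 lay above and 25 below, just short of 2 in 3, while the median of 0.14 passed its limit. Of these genes 3 were called higher and 2 lower, beside 1.47% and 1.30% of all genes. Il18, with 9 and 56 reads, and Tnfsf10, with 41 and 16 reads, were among these 5. Il11 rose from 2.82 to 7.21 CPM and Lif from 6.15 to 14.7 CPM, both cytokines of the gp130 receptor family, while Il1a, with 11.2% of its exon bases shared, fell from 22.2 to 10.3 CPM. Among 21 chemokines, Ccl7, a monocyte attractant, rose from 3.76 to 10.7 CPM and Ppbp, a platelet chemokine, was held at 1233.9 and 1008 CPM. Of 70 interferon-stimulated genes 28 lay above and 42 below, 0 passed 2-fold and the median was -0.08. Gbp9, a guanylate-binding protein, had 7.97 and 4.12 CPM.

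The lists shifted downward included receptors, channels and transporters. Purinergic and adenosine receptors, which sense extracellular nucleotides, had the lowest median of the 128 lists, -0.30, with 15 of 21 below. In this list 1, P2rx5 on 8 and 49 reads, was called higher and 0 lower, beside 1.47% and 1.30% of all genes. P2ry12, an ADP receptor of microglia and platelets, had 10.9 and 6.08 CPM, and P2rx1, an ATP-gated channel of platelets and myeloid cells, 115 and 80.1 CPM, 1.43 times lower (1.34 to 1.53). P2rx7, the ATP channel upstream of the inflammasome, went the other way at 29.0 and 45.7 CPM, a ratio of 1.57 (1.41 to 1.76), as did P2rx4 at 63.5 and 80.8 CPM.

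The other lists shifted downward held few calls. Potassium channels and the sodium pump had 19 of 27 below and a median of -0.17. The 2 called lower, beside 1.30% of all genes, were Kcna3 and the pump subunit Atp1b2. Over the 11 members that reached 5 CPM the median was -0.07, and with no filter it was -0.06, so that neither setting called the list. Schlafen and GIMAP genes of lymphoid and myeloid cells had 10 of 15 below and a median of -0.23, and were not called at a minimum of 5 CPM, with Gimap8 at 7.65 and 4.91 CPM and Gimap4 at 3.39 and 6.38 CPM. Replication-dependent histone genes had 13 of 19 below and a median of -0.23, which was -0.10 and not called over all 39 with no filter, and the linker histone Hist1h1c had 259 and 210 CPM. Most of these mRNAs lack a poly(A) tail, and closely related copies can share reads. DNA replication genes, read beside them, had 17 of 34 above and a median of 0.00.

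ABC transporters and the IGF axis were near the limit for a shift. ABC transporters had 25 of 37 below and a median of -0.12, which was -0.05 and not called at a minimum of 5 CPM, with the peroxisomal Abcd3 at 26.7 and 18.1 CPM. The IGF axis had 9 of 12 below and a median of -0.10, which was -0.09 and not called with the length trend removed, with Igf1r at 32.9 and 25.5 CPM.

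Platelet genes were read beside the receptors and adhesion genes that platelets share. Of 30 megakaryocyte and platelet markers, a list written after the data were seen, 26 were held, 20 lay below the all-gene median, and the median was -0.03. Held genes made up 35.1% of all genes, but 86.1% between 100 and 500 CPM and 94.1% at 500 CPM or more. The list summed to 12118 CPM with vehicle, so its count of held members cannot be read apart from level. Cd9 had 1508 and 1278 CPM and Itga2b, the platelet fibrinogen receptor subunit, was held at 1247 and 1187 CPM. Whether these cells took part in the P2rx1, P2ry12, Itga6 or Thbs1 differences was not tested.

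Housekeeping families were close to constant. Of 86 cytosolic ribosomal proteins 80 were held, with 58 above the all-gene median and a median of 0.05. Of 46 proteasome subunits 37 were held, of 25 citrate cycle genes 23, of 30 NRF2 and glutathione genes 29, and of 79 nuclear genes of the respiratory chain 64. Glycolysis genes had a median of -0.01 with 15 of 21 held. In each of these lists the share held was above the 35.1% of all genes, and held levels were more frequent at high levels throughout.

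Cytoskeletal lists were mixed. Septins, GTPases that form filaments, had 8 of 10 above and a median of 0.17, while their sum was 788 and 773 CPM, with Sept10 at 5.46 and 8.10 CPM and Sept7 at 214 and 166 CPM. Myosins had 20 of 29 above and a median of 0.11, not called with TMM factors, with no filter or with 5 CPM added, with Myh10, a non-muscle heavy chain, at 3.64 and 5.69 CPM and Myo10 held at 65.9 and 62.6 CPM.

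**Figure D4:**
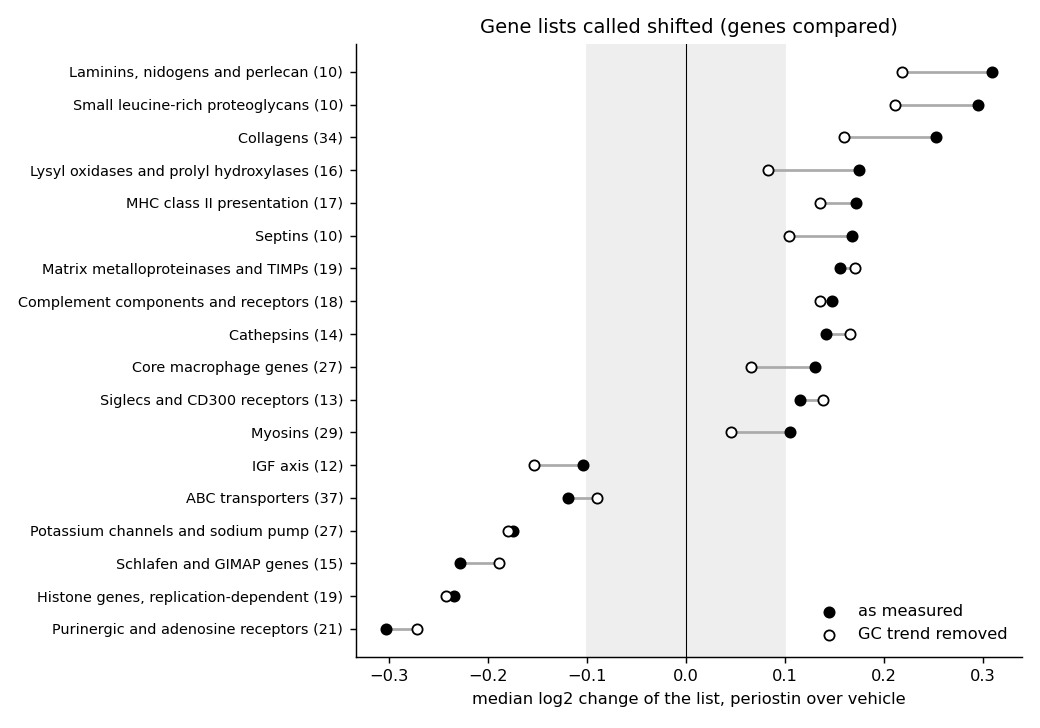
Median log2 change of 18 of the 19 gene lists called shifted, as measured (filled) and after removal of the GC trend (open), with the number of genes compared in brackets and the strip within 0.1 of 0 shaded. Laminins and small leucine-rich proteoglycans are highest and purinergic receptors lowest in both versions, while collagens come next as measured and lie below metalloproteinases and cathepsins with the trend removed.

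Small shifts across the whole transcriptome went with the base composition of the transcript. In the decile of genes with the lowest GC content, 27.5% to 41.4%, the median log2 change was -0.15, and in the decile with the highest it was 0.10. The Spearman correlation of change with GC content was 0.24 across the 14627 genes with a GC value, and 0.52 among the 1998 genes between 100 and 500 CPM. These are descriptions across genes of the same 2 libraries, and genes are not replicates. With exon length the correlation was -0.09, and decile medians ran from 0.06 for the shortest to -0.04 for the longest genes.

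When the GC trend was removed, 11 lists were shifted upward and 5 downward, and 7 and 4 of them were also called without the correction. Collagens kept a median of 0.16, laminins 0.22, metalloproteinases 0.17, complement 0.14, and purinergic receptors -0.27. The lists no longer called higher were core macrophage genes at 0.07, lysyl oxidases and prolyl hydroxylases at 0.08, myosins at 0.05, cathepsins and MHC class II presentation. Cathepsins and MHC class II presentation kept medians of 0.17 and 0.14, but only 9 of 14 and 11 of 17 lay above. Those no longer called lower were ABC transporters and Schlafen and GIMAP genes, and 1 list not described here. Scavenger receptors, the MS4A family and inflammatory cytokines and receptors were called higher with the GC trend removed and not as measured, and tubulins lower. Scavenger receptors and inflammatory cytokines and receptors were also called higher with the length trend removed, at 0.10 and 0.11. The 13 protein genes of mitochondrial DNA, which have a low GC content, moved from 0.07 to 0.23, from 8 to 12 of 13 above, and were called too.

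**Figure D5:**
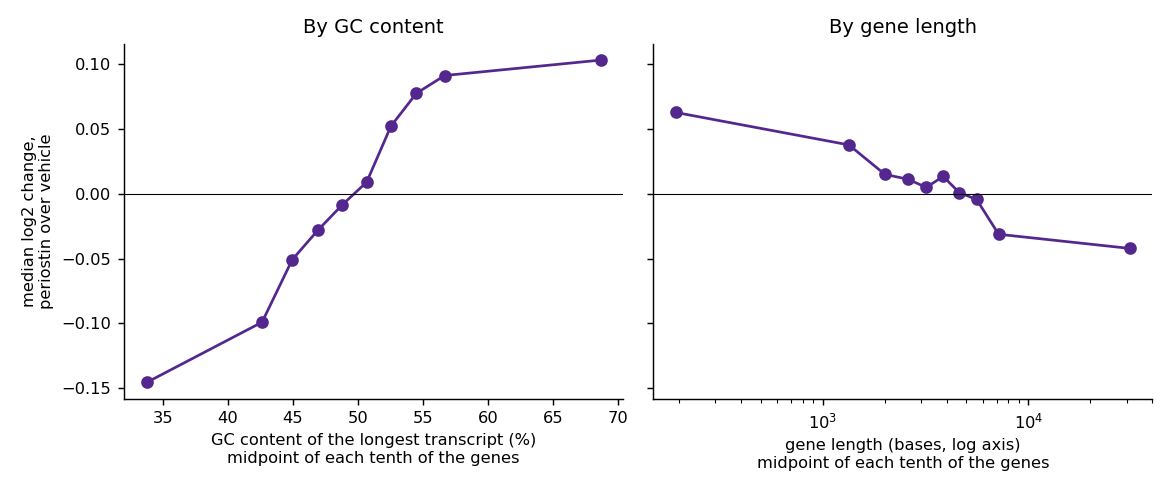
Median log2 change with 1 CPM added in each decile of the compared genes, ordered by the GC content of the longest transcript (left) and by exon length on a log axis (right), each point at the geometric midpoint of its decile. Medians climb from -0.15 at the lowest to 0.10 at the highest GC content, and go from 0.06 to -0.04 with length.

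Several short structured RNAs rose, in a list written after these genes had been seen. Such RNAs have no poly(A) tail: Y RNAs bind the Ro protein, vault RNA is part of the vault particle, and the U11 and U12 RNAs act in the minor spliceosome. Of 13 listed, 10 were compared, all 10 lay above the all-gene median, Rn7s1 with 1.32 CPM on both sides, 6 were called higher, and the median log2 change was 1.31. Since its members were picked with their values known, the whole annotated classes are a broader measure, although they still hold picked genes. The 15 snRNA genes had a median of 0.57 with 6 called higher and 1 lower. The 27 genes of the class misc_RNA had a median of 0.06 with 3 higher and 1 lower. Of all genes 1.47% were called higher and 1.30% lower, and of genes under 1 CPM 5.63% and 3.54%. Sequences of Rny1, Rny3, Rnu11 and Rnu12 are shown as DNA from GENCODE M21 on GRCm38, because their reads are few and the genes short. Rny1 lies on chromosome 6, 47788069 to 47788180 on the minus strand, and Rny3 on chromosome 6, 47781624 to 47781725 on the plus strand. Rnu11 lies on chromosome 4, 132270080 to 132270213, minus, and Rnu12 on chromosome 15, 83149644 to 83149794, plus. In the Y RNAs capitals mark the longest run of letters that both share, and in the U RNAs the run AATTTTT, the core of the site that binds Sm proteins, found in 6.00% of the 1383 snRNA transcripts of the annotation.
Rny1: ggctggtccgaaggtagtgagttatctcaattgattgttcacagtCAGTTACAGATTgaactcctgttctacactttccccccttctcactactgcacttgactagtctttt
Rny3: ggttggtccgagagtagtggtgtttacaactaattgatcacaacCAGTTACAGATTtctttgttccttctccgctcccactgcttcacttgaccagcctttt
Rnu11: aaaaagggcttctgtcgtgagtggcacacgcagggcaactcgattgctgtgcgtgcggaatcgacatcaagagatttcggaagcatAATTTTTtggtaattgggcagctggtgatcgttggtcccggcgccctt
Rnu12: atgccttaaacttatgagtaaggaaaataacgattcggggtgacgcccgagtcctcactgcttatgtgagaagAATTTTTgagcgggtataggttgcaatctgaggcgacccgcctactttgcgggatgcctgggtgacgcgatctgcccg
Rny1 rose from 4.14 to 16.7 CPM, a ratio of 4.04 (3.10 to 5.34), and Rny3 from 6.21 to 26.7 CPM, a ratio of 4.30 (3.46 to 5.38). Both Y RNAs thus differed by a like ratio, with intervals that overlap.

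The U RNAs stood on few reads. Rnu12 rose from 10 to 98 reads, 0.627 and 4.81 CPM, a ratio of 7.66 (4.00 to 16.5). Rnu11 rose from 13 to 73 reads, 0.815 and 3.58 CPM, but its whole exon length overlaps another gene. Rpph1, the RNA of ribonuclease P, had 8.47 and 16.8 CPM with 73.0% of its length in other genes, and Rn7sk, the RNA that holds the elongation factor P-TEFb, had 50.4 and 71.8 CPM. Small nuclear and Y RNAs have near-identical copies in the genome, so the authors' counting may have split their reads. All 99 small nucleolar RNA genes had a median of 0.01, with 8 called higher and 4 lower, beside 1.47% and 1.30% of all genes. They summed to only 205 and 202 CPM, and of genes between 1 and 5 CPM 4.29% were called higher and 4.22% lower.

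The authors' deposited table of annotation terms, made for genes they took as higher with periostin in these cells, was set beside the levels. It held 637 terms, of which 71 had a Benjamini adjusted p-value under 0.05, and named 1443 genes, all found in the expression table. The lowest log2 fold change among these genes was 0.50 in the authors' deposited table. Here 1066 of the 1443, or 73.9%, reached 1 CPM, 144 or 9.98% were called 2-fold higher, and 239 had 3 or fewer reads with vehicle. Their median level was 1.69 CPM. Since these genes were picked for a higher level with periostin, their direction is not independent evidence.

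The first term of the authors' deposited table was proteinaceous extracellular matrix, with 75 genes, a fold enrichment of 3.35 and an adjusted p-value of 8.3e-18. Of these genes 60 were compared and 15 called higher, and their sum was 953 CPM with vehicle and 2155 CPM with periostin. Col2a1 and Fn1 together made up 57.7% of that difference.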

How the data were processed

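RNA was sequenced after 24 h of treatment, with libraries made from total RNA by a TruSeq kit, per the labels' protocols. Alignment with HISAT2 to GRCm38 is named in the submitters' processing notes without versions, while the counter, its use of strand and the gene annotation are not stated there or in the labels. The authors deposited a signal per gene and library that proved to be reads divided by 1 size factor per library: divided by that step, 100% of values came out whole to 0.001 read, which gave back the reads. CPM here is the deposited value per 15573211, the average total of the 4 columns of the series, times 1000000. The log2 fold change in the authors' deposited table matched the columns' own ratio, without a pseudocount, to within 0.0050 and served only to describe the term table. That table holds the authors' p-value, Benjamini adjusted p-value and fold enrichment ratio per term.

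The unit had been assumed to be counts or a normalized value, and the scaled signal was treated as the nearest to it. The filter was 1 CPM in the library with the higher level, and changes are on log2 of the level plus 1 CPM. Called genes changed at least 2-fold. Folds carry exact 95% conditional binomial intervals of recovered reads. With 1 library per group a count test has no residual degrees of freedom, and no p-value was computed. The limit that a count of 0 allows, 3 reads, was 0.188 CPM with vehicle and 0.147 CPM with periostin. Bands of mean CPM had limits at 1, 5, 20, 100 and 500. GENCODE M21 gave GC content of the longest transcript, exon length and overlap for 17067 genes, and 120 genes had no symbol. Trends with GC or length were removed as medians of 20 bins. Genes were named by rule: the sort markers, the 4 highest and 4 lowest changes in each band from 5 CPM, the 5 most tightly held in both upper bands, and in each list described up to 2 members with the largest change in each direction at 5 CPM or more. Predicted genes, pseudogenes and histones were left out of the band rule. The members, lists and rules were chosen with earlier results of these data known. Scripts were checked on simulated data. Python 3.11.15, pandas 2.3.3, scipy 1.17.1, R 4.3.3 and edgeR 4.0.16 (for TMM factors only) were used. A few genes and 1 gene list are not reported here.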

Additional observations from a re-analysis of the deposited data

Results flagged for a closer look

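The authors' table lists a gene only where both libraries have at least 1 read, so genes at 0 on 1 side are outside the comparisons above. For 322 genes that the table leaves out, reads were worked out from the deposited mean because the series' other table lists them. Of these, 101 had over 3 reads with periostin and 0 with vehicle, and 81 had over 3 reads with vehicle and 0 with periostin. Counts just over 3 beside 0 can lie within counting error. The periostin library also held more reads, 19798150 against 15471245, so the same limit in reads is easier to pass there. At 1 CPM or more there were 6 with periostin only and 10 with vehicle only. With periostin only, R3hdml had 49 reads, Ffar4, a receptor for long-chain fatty acids, 44, Ncmap, a protein of peripheral myelin, 40, and Clec3a, a lectin of cartilage, 32. With vehicle only, Fam13a had 30 reads, F8, coagulation factor VIII, 28, Susd2 22 and Drd1, a dopamine receptor, 18.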

How the results depend on the processing

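No paired analysis was possible because each group held 1 library. Own-total CPM, TMM factors, removal of the GC trend or of the length trend, and the left-out genes each kept the 2-fold counts within 1.5 times of 217 higher and 191 lower. Those counts were 644 and 574 with 0.1 CPM added, 19 and 9 with 5 CPM added, 74 and 65 at a minimum of 5 CPM, and 398 and 388 where the whole interval had to lie beyond 1.5-fold. Held genes numbered 2378 at a limit of 15% higher and the equal ratio lower. Lists shifted downward numbered 4 at a minimum of 5 CPM, 4 with no filter and 4 with the length trend removed. The median of the band under 1 CPM was 0.11 as measured, 0.28 with own-total CPM, 0.28 with TMM factors and -0.034 with predicted genes and pseudogenes left out; the cause was not tested. Among single genes and lists, 34 values lost a call, 18 gained one and none changed direction while called. Depth limits genes under 5 CPM, where no level was held.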
